A study of Mus musculus with 4 samples.

Results

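The mir-379 to mir-410 cluster is a run of miRNA hairpins on the plus strand of mouse chromosome 12. Its members here were all GENCODE miRNA genes from Mir379 to Mir410, without Mir299a, counted by reads of 18 to 27 nt that matched the hairpin without mismatch. There were 37 such hairpins of 2202 annotated in all. Of these, 35 had at least 1 read, and Mir654 and Mir453 had none in any library. The cluster spans 34736 bases, at chr12:109709060-109743795 of GRCm38.

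The cluster lies in the Dlk1-Dio3 imprinted domain, where the non-coding RNAs and miRNAs are expressed from the maternally inherited chromosome. Its hairpins are thought to be cut from long non-coding transcripts of that domain. Drosha releases each hairpin, Dicer cuts it to a duplex of a 5p and a 3p arm, and an Argonaute protein keeps mainly 1 of the arms. Mice without the cluster have been described with impaired metabolic adaptation around birth, and in neurons several members act in synapse growth. Imprinting itself is not measured by these reads.

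Small RNA was sequenced from fetal liver of wildtype mice and of mice with Ago2 CD, a catalytic dead form of Ago2 that cannot slice its target. There were 2 libraries of each genotype, described in the series as biological replicates. The age of the fetuses, the strain, the sex and the number of livers behind a library are not given in the labels, nor are further details of the allele. Both genotypes share the tissue, the Trizol extraction and the TruSeq small RNA kit. The tissue is a mixture of cells, in which fewer cells of a type and less RNA per cell cannot be told apart.

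The libraries held 13138065 to 21875540 reads, of which 7813208 to 14420028 were counted for a hairpin arm. Ago2 messenger RNA is not read by this assay. As a check of the labels, mir-451a, whose maturation is known to need slicing by Ago2, took 51.9% and 40.1% of arm reads in the wildtype libraries. It took 0.301% and 0.343% in the Ago2 CD libraries. Reads reached 50 nt in the libraries wildtype 1 and Ago2 CD 2, here called the 50 nt pair. They reached 46 nt in wildtype 2 and Ago2 CD 1, the 46 nt pair. Each pair thus holds both genotypes, and the pairs differed in several measures of the cluster, so values within pairs are given beside the pooled ones. Marker miRNAs summed over each list differed more by library than by genotype for muscle and neuron. Muscle markers (miR-1a, miR-133a and miR-206) reached 720.1 counts per 1000000 (CPM) in wildtype replicate 1 and 13.3 to 34.9 in the others. Neuron markers (miR-9 and miR-124) were at 269.3 and 316.1 CPM in the 46 nt pair and at 13.1 and 16.4 in the 50 nt pair. Hepatocyte markers (miR-122, miR-192 and miR-194) were at 26353 and 35390 CPM in the 50 nt pair and at 58877 and 75540 in the 46 nt pair. Epithelial markers were at 728.7 and 955.9 CPM in the 50 nt pair and at 1485 and 1617 in the 46 nt pair. Mesenchymal markers stayed between 3297 and 4081 CPM, myeloid ones between 59816 and 71089, and endothelial miR-126 between 6191 and 8310. Erythroid markers (miR-451a, miR-144 and miR-486) were at 1129991 and 585859 CPM in wildtype and at 248975 and 330159 CPM in Ago2 CD. The maturation of miR-451a itself depends on the allele, and whether that of miR-144 or miR-486 does was not tested here. Their sum is therefore not a measure of erythroid cells alone. The sum passes 1000000 because TMM scaling shrinks the library size of wildtype replicate 1. The part of these cell types in the values below was not tested.

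RefSeq (GRCm38.p6) gave mature sequences for 67 arms of the cluster. The sequences of the arms on which the results turn follow, 5′ to 3′, with the seed (bases 2 to 8), which pairs with targets, in capitals. The first set holds the most abundant arms.
miR-369-3p: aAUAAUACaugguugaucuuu
miR-154-3p: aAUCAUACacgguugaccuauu
miR-376b-3p: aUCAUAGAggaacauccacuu
miR-410-3p: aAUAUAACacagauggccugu
miR-377-3p: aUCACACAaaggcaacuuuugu
miR-495-3p: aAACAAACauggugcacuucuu
miR-541-5p: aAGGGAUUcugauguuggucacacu
miR-300-3p: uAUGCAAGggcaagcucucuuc
miR-376a-3p: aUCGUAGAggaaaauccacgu
miR-381-3p: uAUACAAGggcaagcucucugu
miR-329-3p: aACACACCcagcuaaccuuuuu
The next set holds arms whose share of the hairpin, tails or level differed between arms or libraries.
miR-379-5p: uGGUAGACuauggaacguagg
miR-379-3p: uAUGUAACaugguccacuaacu
miR-411-5p: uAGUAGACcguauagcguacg
miR-411-3p: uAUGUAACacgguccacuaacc
miR-154-5p: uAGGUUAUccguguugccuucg
miR-544-5p: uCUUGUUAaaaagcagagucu
miR-544-3p: aUUCUGCAuuuuuagcaagcuc
miR-667-3p: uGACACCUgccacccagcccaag
miR-134-5p: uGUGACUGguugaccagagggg
miR-409-5p: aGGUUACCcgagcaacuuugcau
miR-539-5p: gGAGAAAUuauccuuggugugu

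Several members are near copies of each other, but few share a whole seed. Identical seeds were found for 6 pairs: miR-379-3p with miR-411-3p, miR-379-5p with miR-1193-5p, miR-376b-5p with miR-376c-5p, miR-494-5p with miR-410-5p, miR-1197-5p with miR-758-5p, and miR-453-3p with miR-496a-5p. Of the first 18 bases, miR-300-3p and miR-381-3p shared 17 and miR-376b-3p and miR-376a-3p shared 16, each pair with 6 of 7 seed bases alike. The most abundant arms, miR-369-3p and miR-154-3p, shared 15 of the first 18 bases and 6 of 7 in the seed. The first base was U in 16 and A in 13 of 33 arms of the 3p side. A run of letters noticed on reading the sequences, ACACGG, was in 5 of the 67 arms (miR-411-3p, miR-323-3p, miR-494-3p, miR-485-3p and miR-154-3p) and in 7 of 1738 mature sequences in all, 0.403%. miR-376b-5p and miR-376c-5p are identical over their first 18 bases. Over the cluster, 283 reads that fitted a member arm and also another arm were left out.

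The hairpins of the cluster differed in level by a factor of 691.1 between the highest and the lowest of those with 20 or more reads per library. The first 5 (mir-369, mir-154, mir-376b, mir-410 and mir-377) made up 57.6% of the cluster's mean CPM, and the first 12 made up 83.2%. Levels are of both arms together, in CPM with library sizes scaled by the trimmed mean of M-values (TMM). In every sentence that follows, libraries come in the order wildtype replicates 1 and 2, then Ago2 CD replicates 1 and 2.

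By the mean over the 4 libraries the highest hairpin was mir-369, whose 3p arm is known to bind AU-rich elements, at chr12:109743418-109743496. It was at 12650, 8806, 10133 and 10841 CPM. mir-154 lay at chr12:109738433-109738498 and was at 12252, 7347, 8194 and 12158 CPM. For mir-369 the Ago2 CD values fell inside the wildtype range, and mir-154 was higher in the 50 nt pair than in the 46 nt pair in both genotypes. mir-369 led in wildtype 1 and Ago2 CD 1, mir-376b in wildtype 2 and mir-154 in Ago2 CD 2.

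mir-376b, of a family known for A-to-I editing in brain, lay at chr12:109723458-109723539 and was at 7290, 9037, 9240 and 7061 CPM. It was lower in the 50 nt pair, the reverse of mir-154. In that pair most reads of its 3p arm, and of the 3p arms of mir-376a and mir-377, began 3 nt further in. Such reads are counted only where they keep at least 18 nt, so the levels and ranks of these hairpins rest on different reads in the pairs. mir-410, the last member, lay at chr12:109743715-109743795 and was at 5692, 4295, 2696 and 3701 CPM. Both of its Ago2 CD values were below both wildtype values. mir-377 was at 3911, 4089, 4796 and 3397 CPM, with overlapping groups. mir-495 was at 3152, 3113, 3895 and 3342 CPM, and both of its Ago2 CD values were above both wildtype values. mir-541 was at 2992, 2771, 2743 and 3585 CPM, again overlapping.

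The next 5 hairpins lay close together in level and their order changed between libraries. mir-411 was at 2378, 2633, 2232 and 2003 CPM. mir-300 was at 1742, 2219, 2336 and 2250 CPM, and mir-376a at 1763, 2418, 2307 and 1793. Wildtype replicate 1 was the lowest library for both. mir-381 was at 2452, 1232, 1167 and 2352 CPM, about the same within each pair and higher in the 50 nt pair. mir-329, which is induced with neuronal activity together with mir-134 and mir-381, was at 2434, 1469, 1505 and 1449 CPM, with only wildtype replicate 1 apart.

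mir-379, the first member, at chr12:109709060-109709125, ranked 13 by mean level and was at 1150, 1959, 1294 and 898.8 CPM. mir-134, a miRNA of dendritic spines, ranked 26 with 112.9, 239.1, 250.0 and 127.9 CPM. It was higher in both libraries of the 46 nt pair. The lowest hairpins with 20 or more reads per library were mir-668 (mean 15.4 CPM), mir-1197 (20.8) and mir-679 (26.8). Gm27379 had 7 reads over the 4 libraries. Mir654 and Mir453 had 0 reads, which allows up to 3 reads in a library, a limit that covers counting error only.

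Neighbours in the genome differed widely. mir-412, at a mean of 51.8 CPM, lay 49 bases before mir-369, at 10607 CPM. mir-1197 lay 71 bases before mir-323, which had a mean of 235.1 CPM. The annotated non-coding gene Mirg covers 13 hairpins, from Mir382 to Mir410, and the other 24 lie upstream of it with no annotated host on their strand. Of the 13, 4 lay in a Mirg exon, 4 across an exon boundary and 5 in an intron. The 13 hairpins carried 55.3% of the mean cluster CPM.

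**Figure D1:**
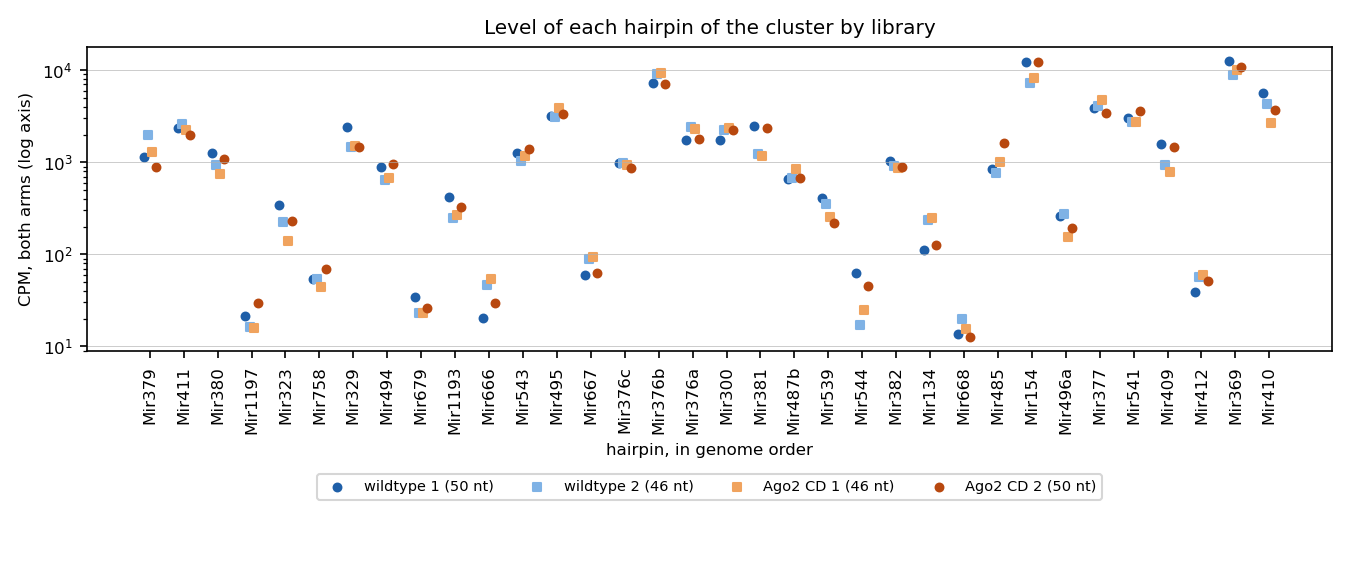
CPM of both arms (log axis) for the 34 hairpins with 20 or more reads per library, in genome order; each point is 1 library, circles for the 50 nt and squares for the 46 nt pair. Levels ran from a mean of 15.4 CPM for Mir668 to 10607 CPM for Mir369, with neighbouring hairpins far apart and the 4 libraries close together by comparison.

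Most hairpins of the cluster delivered the 3p arm. Among the 34 hairpins with 20 or more reads per library, the 3p arm held over 50% of reads in all 4 libraries in 25, and over 90% in 21. The 5p arm led in all libraries in 4 hairpins, and in 5 the leading arm depended on the library. The strongest 3p preference was that of mir-410, with 99.98% to 99.99% of reads on the 3p arm. In mir-487b it was 99.95% to 99.98%.

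The 4 hairpins led by the 5p arm were mir-541, mir-134, mir-679 and mir-412. In mir-541, whose 5p arm is known from neurite growth, the 3p share was 0.732%, 0.677%, 0.856% and 0.742%. In mir-134 it was 6.42%, 3.03%, 1.43% and 3.92%. The 3p share of mir-679, of which each library had few reads, ran from 6.32% to 32.2%. In mir-412 it was 47.4%, 44.6%, 46.2% and 48.8%, so that the arms were nearly equal in every library.

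In 5 hairpins the minor arm held at least 20% of reads in every library: mir-411, mir-666, mir-539, mir-382 and mir-412. The 3p share of mir-411 was 53.9%, 35.6%, 30.2% and 51.2%. That of mir-382 was 50.4%, 41.3%, 41.0% and 34.6%, that of mir-539 was 52.1%, 31.2%, 48.6% and 59.0%, and that of mir-666 was 63.3%, 67.4%, 56.2% and 43.3%. In mir-411 the leading arm followed the read-length pair, not the genotype.

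The clearest such case was mir-379. Its 3p share was 88.9% and 93.6% in the 50 nt pair and 34.7% and 40.2% in the 46 nt pair. The 5p arm accounted for most of it: miR-379-5p had 756, 11315, 15395 and 551 reads, while miR-379-3p had 6072, 6016, 10340 and 8060. Within a pair the log2 ratio of 3p to 5p reads differed between genotypes by 0.34 (46 nt) and 0.86 (50 nt), and between the pairs by 4.18. mir-154 showed the same order on the other side of a strong preference: miR-154-5p had 433, 4919, 9712 and 614 reads, and its log2 ratio of 3p to 5p differed between the pairs by 3.68.

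**Figure D2:**
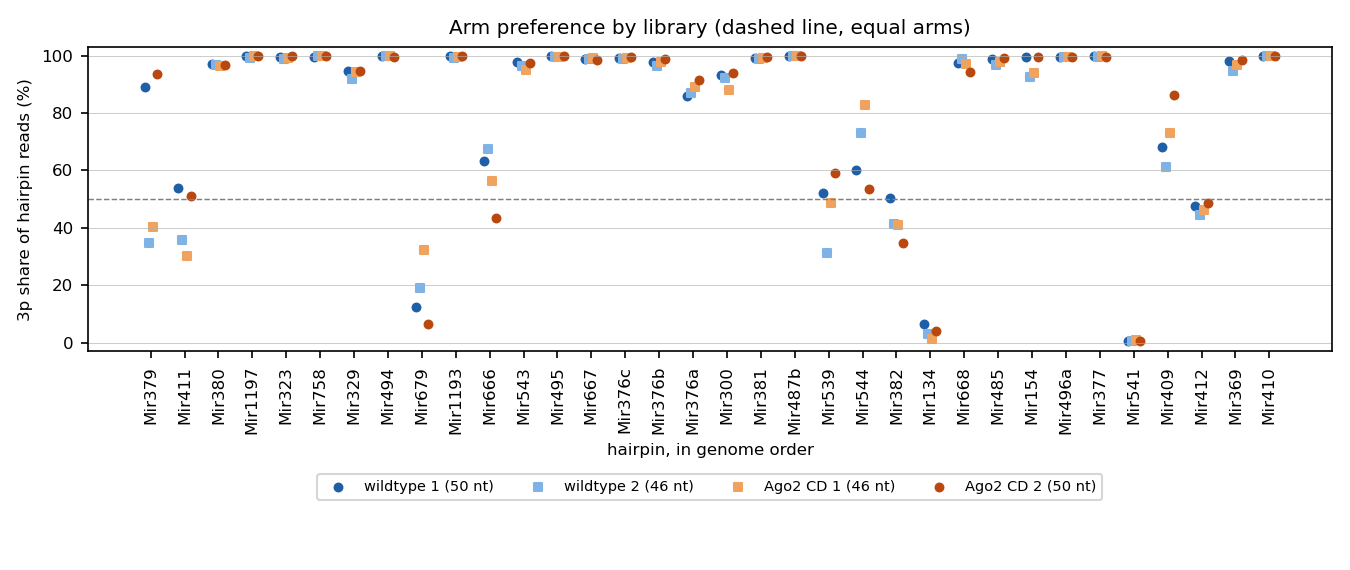
Share of each hairpin's reads on the 3p arm (%), in genome order, for 34 hairpins; each point is 1 library and the dashed line marks equal arms. Most hairpins lie above 90% in every library, and Mir379 is split by longest read, at 88.9% and 93.6% against 34.7% and 40.2%.

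The 5′ end sets the seed, and most arms had a single main start. Of 40 arms with 200 or more reads per library, 37 had a RefSeq sequence, and in 35 of these the main start was the RefSeq start. The exceptions were miR-382-3p, whose main start lay 2 nt upstream of the RefSeq start, and miR-496a-3p, whose main start lay 2 nt downstream. In miR-496a-3p that start held 57.45%, 50.75%, 43.4% and 49.1% of reads and the RefSeq start 34.9%, 41.9%, 49.9% and 43.3%. The RefSeq start thus led in Ago2 CD replicate 1.

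In 9 arms the main start held under 80% of reads in every library. In miR-411-5p it held 65.6% to 69.8%, and the start 1 nt upstream held 27.7%, 28.4%, 28.5% and 28.2%. This second seed was therefore present at nearly one level in every library. In miR-409-3p the main start held 62.0% to 63.8% and the start 1 nt further in 19.2% to 24.7%. In miR-376a-5p the main start (36.9% to 41.6%) and the start 1 nt further in (30.03% to 43.3%) were about equal. miR-300-5p was alike, with 39.8% to 50.3% at the main start and 30.4% to 40.2% 1 nt further in. In miR-485-3p the main start held 46.9% to 66.6%, in miR-323-3p 63.3% to 78.9%, and in miR-376b-5p 54.4% to 72.85%.

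The 3 abundant arms whose main sequence begins with ATC (miR-376a-3p, miR-376b-3p and miR-377-3p) started at different bases in the pairs. miR-376b-3p had 72873 and 169066 reads from its main start in the 46 nt pair, and 21 and 35 in the 50 nt pair. Reads from 3 nt further in made up 93.9% of the arm in both libraries of the 50 nt pair and 1.21% and 1.35% in the 46 nt pair. Within each pair the genotypes gave nearly the same share.

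For miR-376a-3p the reads at the main start were 4, 17930, 39406 and 4, and the share from 3 nt further in was 97.3%, 0.279%, 0.308% and 97.4%. For miR-377-3p the share 3 nt further in was 62.2%, 0.277%, 0.268% and 60.6%. The absence of this beginning was not particular to the cluster. Among all reads of 18 to 27 nt, those beginning with ATC made up 1.91% and 2.66% in the 46 nt pair and 0.00638% and 0.0110% in the 50 nt pair. Reads ending with TGG made up 2.38% and 3.17% in the 46 nt pair and 6.31e-05% and 0.000169% in the 50 nt pair. The seeds of these 3 arms are therefore read in full almost only in the 46 nt pair. Their counts, taken on the hairpin side, include the shorter reads only where these keep at least 18 nt. Reads under 18 nt were left out. Summed over the libraries they numbered 29197 for mir-376b, 17484 for mir-377 and 4441 for mir-376a. The trimming settings are not given in the sources used here, and the cause was not tested.

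**Figure D3:**
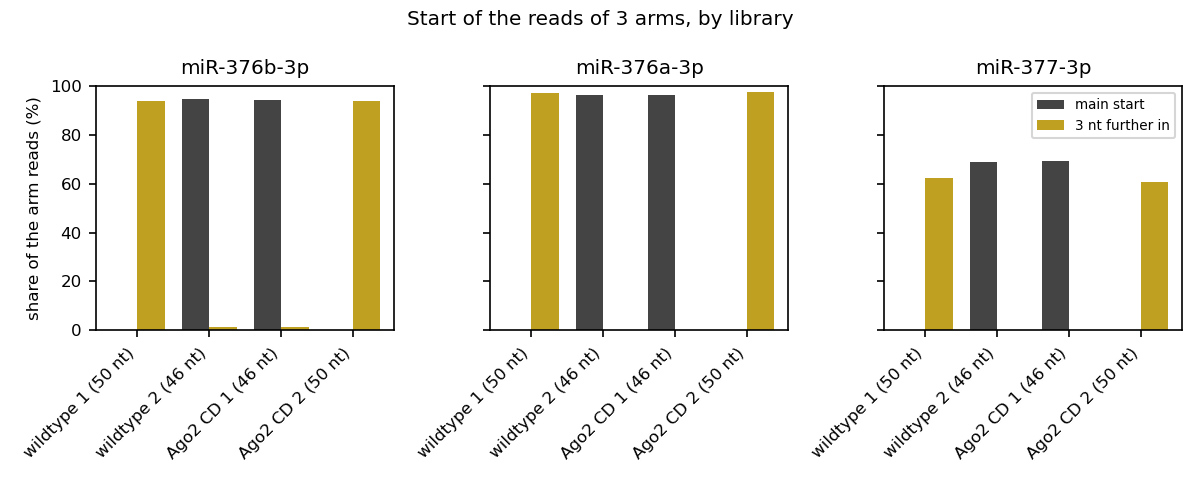
Share of the arm's reads (%) at the main start and 3 nt further in, for the 3 abundant arms that begin with ATC, by library. For miR-376b-3p the reads 3 nt further in make up 93.9% in each library of the 50 nt pair and 1.21% and 1.35% in the 46 nt pair.

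Tails are 1 added nucleotide at the 3′ end that does not match the hairpin, so a nucleotide equal to the hairpin's next base is never counted as one. At the last base of an annotated hairpin the next genomic base is not known here, and a templated base cannot be told from an added one. This touched miR-495-3p, with 98.6% of its A or U tails at that base, and miR-380-3p, with 9.13%, and under 1% of those of any other arm examined. Over the cluster, reads with 1 added A made up 3.70%, 5.65%, 5.45% and 3.46% of reads with and without tails, and reads with 1 added U made up 2.14%, 2.68%, 2.12% and 1.76%. A was lower in the 50 nt pair, while U overlapped. Added C made up 12.4%, 0.122%, 0.129% and 14.2%. C thus followed the read-length pair in both genotypes, and it is left out of what follows.

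A or U tails were concentrated on a few arms. Over 42 arms with 200 or more reads per library, tailed reads included, the median share with an added A or U was 7.35%, and 8 arms had at least 10% in each, miR-495-3p among them. In 25 arms A exceeded U in every library and in 11 arms U exceeded A. U is known to be added by terminal uridylyltransferases and A by other terminal nucleotidyltransferases.

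The highest share was that of miR-667-3p, with U on 33.2%, 30.9%, 29.9% and 33.1% of reads and A on 10.7%, 13.4%, 13.6% and 12.1%. miR-544-3p had U on 37.2%, 42.0%, 35.4% and 36.0% and A on 0.936% to 4.46%. The genotypes overlapped in U for miR-667-3p, and both Ago2 CD values of miR-544-3p were below both wildtype values. miR-134-5p had both tails, U on 14.5%, 13.3%, 11.9% and 14.8% and A on 10.6%, 10.9%, 10.65% and 12.6%.

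miR-300-3p had A on 15.8%, 12.9%, 12.5% and 15.1% and U on 10.3%, 7.68%, 6.81% and 7.22%. Its near copy miR-381-3p had A on 0.792% to 2.51% and U on 0.289% to 0.427%. miR-411-3p had U on 17.7%, 16.3%, 13.4% and 12.7%, and miR-379-3p, with the same seed and 17 of its first 18 bases, had U on 3.59%, 4.86%, 4.87% and 2.91%. U as scored thus differed several-fold within this pair in all 4 libraries, and A did not: it was on 5.46%, 8.41%, 9.18% and 4.95% of miR-411-3p and on 6.70%, 9.17%, 8.52% and 5.32% of miR-379-3p. After the shared cuaac the hairpin's next base is U in miR-379-3p and C in miR-411-3p. A U at that place is therefore counted as a tail in miR-411-3p only. Its part in the difference was not tested.

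The highest arms, miR-369-3p and miR-154-3p, carried few A or U tails, while other abundant arms carried more. miR-154-3p had A on 0.545% to 0.912% and miR-369-3p on 1.22% to 1.496%, both with U under that in every library. miR-376b-3p had A on 13.2%, 10.2%, 9.80% and 10.7%. miR-376a-3p had A on 7.72%, 21.3%, 21.2% and 6.85%, so that its order against its near copy miR-376b-3p turned between the pairs. In the 50 nt pair, however, 97.25% and 97.43% of the untailed reads of miR-376a-3p began 3 nt further in, and 93.9% of those of miR-376b-3p. A tailed read was counted only where its matched part kept at least 18 nt. The shares of the pairs thus rest on different sets of reads, and the effect of this on the order was not tested. miR-379-5p, few in the 50 nt pair, had U on 15.1% and 21.9% there and on 5.10% and 4.16% in the 46 nt pair.

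**Figure D4:**
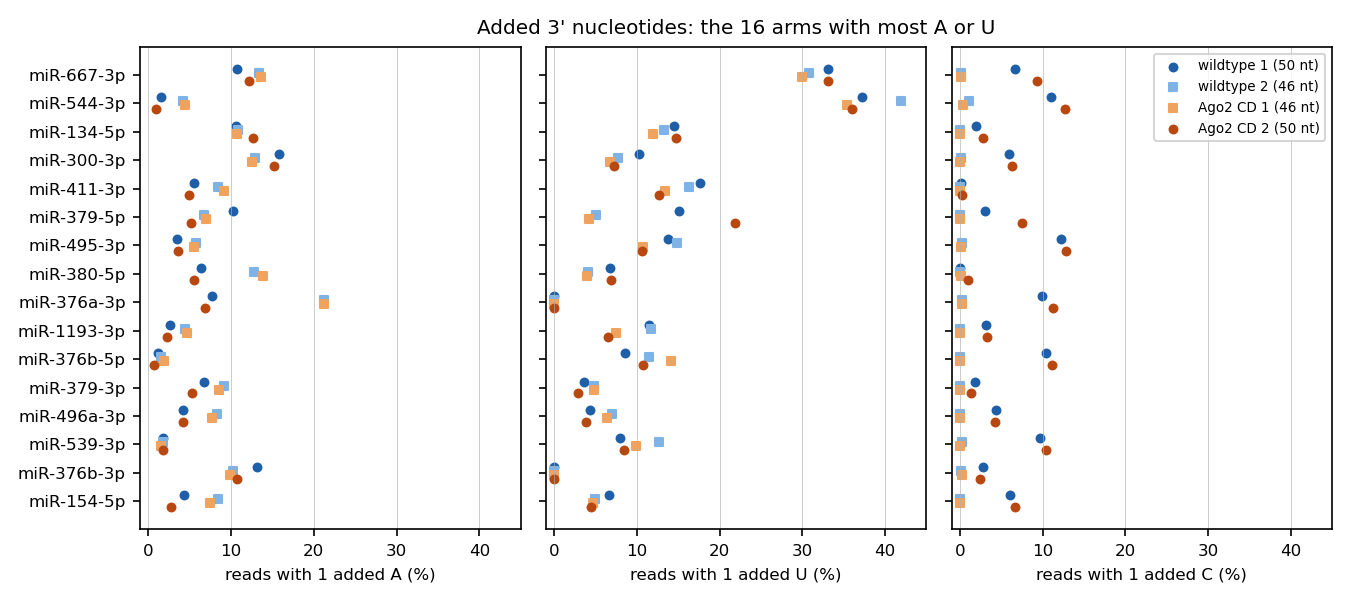
Reads with 1 added A, U or C (% of the arm's reads with and without tails) for the 16 arms with the highest mean share of A or U; each point is 1 library, and the tails of miR-495-3p lie at the end of its hairpin. miR-667-3p and miR-544-3p carry U on 29.9% to 42.0% of reads in every library, and the highest added C among these arms in the 46 nt pair is 1.15%.

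No arm of the cluster passed the threshold between genotypes. In edgeR's quasi-likelihood test, 0 of 63 member arms had an adjusted p under 0.05, against 2 of all 580 arms tested (0.345%). At an unadjusted p under 0.05 there were 2 members, against 2.76% of all arms. DESeq2 and limma voom also called 0 members, against 8 and 2 of all 580 arms. At an unadjusted p under 0.05 each had 2 members, against 21 and 17 of all arms. The log2 fold change (Ago2 CD over wildtype) was above 0 in 27 of 63 members and in 312 of all 580 arms. Its median was -0.06 over the members and 0.04 over all arms.

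That median depended on the scaling. With library sizes set to all reads of at least 18 nt it was 0.47 over the members and 0.57 over all arms, and with arm reads other than mir-451a it was -0.21 and -0.11. The cluster's median was about 0.1 below that of all arms under each of these. A change of scaling shifts all arms nearly alike, so this agreement is not further evidence for the gap. The standard error of a member's fold change ran from 0.26 to 1.53, with a median of 0.40, so only changes well above that size could be detected. Within the 46 nt pair the median over members was -0.07 and within the 50 nt pair -0.17. In 28 arms both pairs were below 0, in 16 both were above, and in 19 they disagreed. The same counts over all arms are not given here, so they are not shown to be particular to the cluster.

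Both Ago2 CD libraries lay below both wildtype libraries in 11 members, against 14.3% of all arms, and above in 6, against 15.2% of all arms. The smallest unadjusted p was that of miR-409-5p, at 509.1, 363.9, 214.8 and 199.5 CPM. Its log2 fold change was -1.08 ± 0.31 (SE; edgeR adjusted p = 0.995), and it was -0.76 in the 46 nt pair and -1.35 in the 50 nt pair. The next was miR-539-5p, at 196.6, 244.4, 130.6 and 89.0 CPM, with a log2 fold change of -1.01 ± 0.35 and the same adjusted p. It was -0.90 and -1.14 within the pairs. Both are 5p arms whose 3p partner overlapped between genotypes. miR-381-5p was at 18.9, 13.6, 8.80 and 8.45 CPM, miR-496a-3p at 262.4, 270.8, 153.9 and 191.7, and miR-329-5p at 129.9, 119.8, 86.8 and 75.2. Of the 11 arms that lay lower without overlap, 6 were 5p arms, and 29 of the 63 tested arms were 5p arms.

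On the higher side, miR-485-3p was at 829.6, 735.3, 979.2 and 1592 CPM. Its log2 fold change was 0.72 ± 0.35 (SE; edgeR adjusted p = 0.995), and Ago2 CD replicate 2 stood above the other 3 libraries. miR-666-5p was at 7.41, 15.0, 23.4 and 16.7 CPM, miR-541-3p at 21.9, 18.8, 23.5 and 26.6, miR-495-3p at 3146, 3102, 3879 and 3332, and miR-487b-3p at 661.0, 678.8, 840.5 and 681.6. In Ago2 CD replicate 2, miR-487b-3p lay only just above the wildtype range. The abundant miR-410-3p was at 5691, 4294, 2696 and 3701 CPM, a log2 fold change of -0.64 ± 0.33, and was -0.67 and -0.62 within the pairs.

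Arm preference did not pass the threshold either. In limma 0 of 32 member hairpins did, against 2 of 277 hairpins (0.722%). At an unadjusted p under 0.05 there were 0 members, against 10 of all 277 hairpins. The mir-409 3p share was 68.0%, 61.2%, 72.9% and 86.4%, higher in both Ago2 CD libraries, with a log2 change of the arm ratio of 1.17 ± 0.62 (SE; limma adjusted p = 0.995). It was 0.55 without Ago2 CD replicate 2 and 1.79 without Ago2 CD replicate 1. In mir-381 the log2 change was 0.83 ± 0.60 and in mir-376b 0.73 ± 0.57. In the other direction it was -0.93 ± 0.53 in mir-666, -1.12 ± 0.68 in mir-668 and -0.67 ± 0.51 in mir-487b. Both have few 5p reads (2, 2, 9 and 7 for mir-668). With a pseudocount of 5 the change was -0.27 in mir-668, and in mir-487b its sign turned. These 6 were taken among the hairpins whose Ago2 CD values lay beyond both wildtype values, and none was past the threshold.

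Tails and starts gave no call between genotypes, for members or for all arms. For A tails limma called 0 of 40 members (0% of all 261 arms). At an unadjusted p under 0.05 there were 0 members, against 2 of all 261 arms. For U tails it called 0 of 41 (0% of 265), with 1 member at an unadjusted p under 0.05, against 6 of all 265. For the main start it called 0 of 40 (0% of 250), with 0 members at an unadjusted p under 0.05, against 1 of all 250. The U tails with the smallest p among members were those of miR-487b-3p, on 0.0220%, 0%, 0.0725% and 0.0516% of reads, few in any library. U on miR-369-3p was on 0.0934%, 0.107%, 0.0629% and 0.0596% of reads, on miR-1193-3p on 11.5%, 11.7%, 7.50% and 6.55%, and on miR-495-3p, at the end of its hairpin, on 13.7%, 14.9%, 10.7% and 10.6%. These 3 were lower in both Ago2 CD libraries. U on miR-539-5p was on 5.41%, 5.94%, 7.03% and 8.15%, higher in both. For A tails, the tested ratio, of reads with 1 added A to reads with no tail, was higher in both Ago2 CD libraries for miR-300-5p, while its share of all reads overlapped (3.62%, 3.81%, 4.37% and 3.44%). Among starts, the main start of miR-323-3p held 71.5%, 63.3%, 74.5% and 78.9%, and those of miR-376b-5p, miR-496a-3p and miR-379-3p were lower in both Ago2 CD libraries.

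The longest read of the library went with larger differences than the genotype. With genotype in the edgeR model, 21 of 63 member arms had an adjusted p under 0.05 between the 50 nt and the 46 nt pair, against 178 of 580 arms (30.7%), so the share in the cluster was near that of all arms. This comparison was added after the data had been seen. Of the members, 10 were higher in the 50 nt pair, against 15.7% of all arms, and 11 were lower, against 15% of all arms. Within the cluster the direction went with the arm. The same split over all 580 arms is not given here, so it is not shown to be particular to the cluster. Among 29 tested 5p arms 10 were lower and 1 higher, and among 34 3p arms 1 was lower and 9 were higher.

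miR-379-5p was at 127.4, 1279, 774.3 and 57.5 CPM, a log2 fold change (50 nt over 46 nt) of -3.54 ± 0.16 (SE; edgeR adjusted p = 0.00131). miR-154-5p was at 72.9, 555.9, 488.4 and 64.1 CPM, with -2.93 ± 0.13 and the same adjusted p. miR-544-5p was the 1 5p arm that was higher, at 24.9, 4.63, 4.28 and 20.9 CPM, with 2.35 ± 0.21 (adjusted p = 0.00655). miR-409-3p (1.02 ± 0.12) and miR-381-3p (1.01 ± 0.10) were the highest of the 3p arms. miR-666-3p was the 3p arm that was lower, with -1.26 ± 0.20. The 5p arms of mir-376b, mir-485, mir-134, mir-376c, mir-495, mir-369, mir-300 and mir-411 were also lower in the 50 nt pair. For mir-134 this is the leading arm, at 105.6, 231.9, 246.4 and 122.8 CPM.

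**Figure D5:**
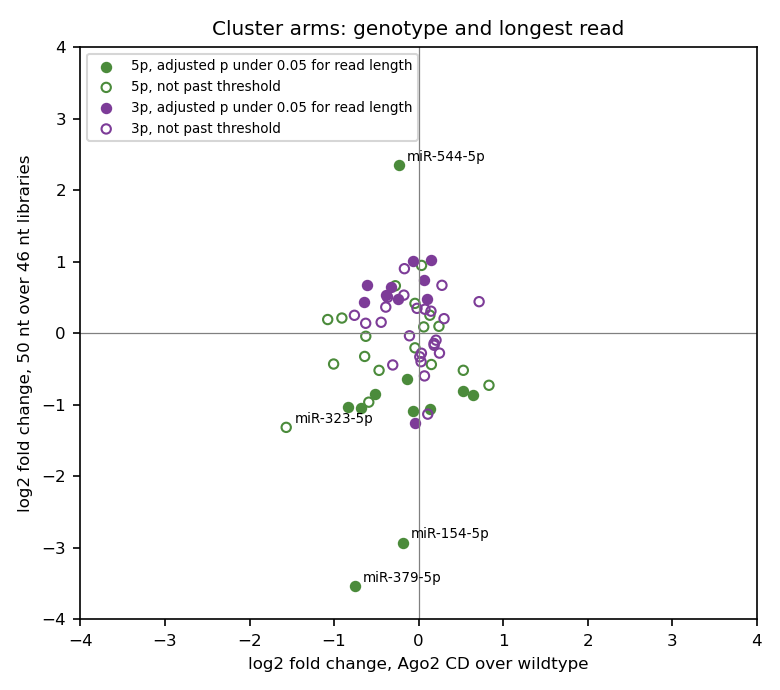
Log2 fold change of each of the 63 tested cluster arms between genotypes (x axis) and between libraries with a longest read of 50 and 46 nt (y axis), 5p arms in green and 3p arms in purple, filled where the adjusted p for read length is under 0.05. No arm passed the threshold on the x axis, 21 passed it on the y axis, and miR-379-5p lies lowest at -3.54.

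A-to-I editing, read as G at an A, has been described for members of this cluster, above all for the miR-376 family in brain. Over 191 A positions within the first 18 bases of 37 member arms with 200 or more reads per library, 0 positions had G on at least 1% of reads in all 4 libraries. The median over these positions was 0.0892%. The highest mean, 0.706%, was at A18G of miR-134-5p (positions from 1 at the main start), at 1.13%, 0.150%, 0.105% and 1.44% of reads. It rests on 3 to 17 reads with G, and it was high in the 50 nt pair only.

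A6G of miR-376c-3p was on 0.350%, 0.237%, 0.204% and 0.458% of reads. The exact (Clopper-Pearson) 95% intervals were 0.207% to 0.552% in wildtype replicate 1 and 0.317% to 0.639% in Ago2 CD replicate 2, counting error only. Some other mismatches were more frequent: the median over positions was 0.739% for G read as T, 0.512% for A read as T and 0.354% for C read as T. The remaining kinds had lower medians than A read as G, the highest being 0.0872% for T read as C. In arms outside the cluster the median for A read as G was 0.0811%. The 3 arms that begin with ATC could be read from their main start in the 46 nt pair only, where the highest value was A4G of miR-377-3p, on 0.349% and 0.317% of reads. These last positions were chosen after their values were seen.

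As a share of all arm reads other than mir-451a, the cluster made up 8.94%, 9.65%, 8.43% and 8.03%. The wildtype mean was 9.29% ± 0.50 (SD, n = 2) and the Ago2 CD mean 8.23% ± 0.28 (SD, n = 2), lower by 1.07 percentage points. The exact two-sided permutation test gave p = 0.33, the smallest that 2 against 2 libraries allow. The direction rests on the denominator: with mir-451a in it, the shares were 4.30%, 5.78%, 8.40% and 7.999%, higher in Ago2 CD by 3.16 percentage points.

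Other miRNAs of the Dlk1-Dio3 domain, outside the cluster, gave 30 tested arms, of which edgeR called 0, with a median log2 fold change of 0.10. At an unadjusted p under 0.05 there were 2 of these, against 16 of all 580 arms. The cluster had 2.77, 2.68, 2.85 and 3.28 reads for each read of these hairpins, nearly the same ratio in 3 of 4 libraries. Fragments of the domain's long transcripts were rare. Reads of at least 20 nt that fitted Mirg, and no hairpin or other gene, numbered 4, 2, 6 and 8. Rian, which lies upstream of the cluster, had 53, 86, 175 and 121, and Meg3 had 50, 71, 124 and 124. Summed, they made up 11.7, 18.4, 14.8 and 17.4 per 1000000 reads outside mir-451a (exact two-sided permutation p = 1). The genotypes overlapped. The hairpins annotated on the opposite strand of Mir380, Mir376a, Mir539 and Mir409 had 0 reads in every library.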

How the data were processed

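The authors deposited counts of distinct read sequences for each library; cutadapt is named in the submitters' processing notes, and trimming settings, aligner and build are not given in the sources used here. From these counts, reads of 18 to 27 nt were matched without mismatch to the GENCODE vM21 hairpins (GRCm38), on the sense strand. Each hairpin was split at its midpoint into a 5p and a 3p arm, arms that shared over 50% of the reads of one were merged, and other ambiguous reads were left out. Reads that matched no hairpin were tried again without their last 1 to 3 nt to find tails. Levels were tested with edgeR 4.0.16 (quasi-likelihood, TMM, filterByExpr), with DESeq2 1.42.0 and limma voom as alternatives. Arm ratios, tails and starts were tested with limma 3.58.1 on log2 ratios with a pseudocount of 0.5: hairpins needed 20 reads in every library and 10 on the minor arm, tails and starts 200. All tests were two-sided, fitted over all arms or hairpins, with a Benjamini-Hochberg adjusted p under 0.05. R was 4.3.3, SciPy 1.17.1. Within a pair, the fold change is the difference of log2 CPM (prior count 2). The edgeR and limma scripts were tested on simulated data. Alternatives were other scalings, filters, read lengths, pseudocounts and minimum reads, RefSeq arms, a replicate block, a read-length term and leaving out each library.

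Members, lists and tests were chosen with earlier results of these data known. Named in full were the 12 highest hairpins, both ends of the cluster, mir-411 and mir-134. Also named were arms past a threshold or, failing those, up to 5 per direction (levels, from a mean of 10 CPM) or 3 (other tests) by smallest p among those whose groups did not overlap. Further rules took hairpins with a minor arm of at least 20%, the 5 arms with most A or U tails, and arms with under 80% of reads at the main start. They also took positions with G on at least 1% of reads.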

Additional observations from a re-analysis of the deposited data

How the results depend on the processing

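Counts of member arms past the threshold between genotypes were 0 in every alternative run, for levels, arm ratios, A tails, U tails and main starts, with edgeR, DESeq2, limma voom or limma; leaving out each library in turn gave 0 to 0, which says little, since 1 genotype then holds a lone library assumed to vary like the other genotype. With the read length as a term, edgeR gave 19 of 63 members an unadjusted p under 0.05, against 123 of all 580 arms. The lowest adjusted p among members was 0.101. Replicate numbers are shared by the genotypes, but libraries of the same number did not deviate together (correlation of deviations -0.72). With the replicate number as a block 0 members passed in each test; pairing them crosswise is the same model as the read-length term, which called 0 members. The arm ratio of mir-487b turned from -0.67 to 0.40 with a pseudocount of 5; the cause was not tested. The cluster's share differed by -1.07 percentage points, by 3.16 with all arm reads as denominator and by 1.60 with all reads of at least 18 nt, and by -1.42 to -0.72 without 1 library. Host fragments differed by 1.07 per 1000000 reads and by 6.23 with mir-451a in the denominator; without 1 library the difference ran from -2.26 to 4.39, and it was -0.25 without Ago2 CD replicate 2. The 21 members called between read lengths were 15 with reads of 16 to 27 nt (129 of all 599 arms) and 15 with tailed reads (123 of all 638 arms). Depth limits the arms of few reads, such as the 5p arms of mir-668 and mir-487b.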

Other observations

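The length of the cluster's reads also went with the longest read of the library. Reads of 21 or 22 nt made up 65.6% and 63.1% of cluster reads in the 50 nt pair and 77.0% and 76.4% in the 46 nt pair. Reads of 18 or 19 nt made up 20.96% and 22.2% in the 50 nt pair and 8.70% and 9.22% in the 46 nt pair. The genotypes were alike within each pair.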
